A study of Mus musculus with 6 samples.

Results

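The genes described here are the Wnt pathway genes of cultured mouse myoblasts with and without a disrupted myostatin gene. They were taken by symbol from the GENCODE M21 annotation: the Wnt ligands, the Frizzled (Fzd) receptors, the secreted antagonists Sfrp1, Sfrp2, Sfrp5 and the numbered Dkk genes, the R-spondins (Rspo) and the Dishevelled genes Dvl1 to Dvl3. Axin1, Axin2, Apc, Gsk3b, Ctnnb1, Lrp5, Lrp6, Lef1, Tcf7, Tcf7l1, Tcf7l2, Porcn, Wls, Znrf3 and Rnf43 completed the set. The annotation held 59 such symbols, of which 49 had values among the 14548 genes of the expression table. Of these 49 genes, 31 reached 1 FPKM (the fragments on a gene divided by its exon length in kilobases and by the mapped fragments of the library) in at least 1 library and were tested, and 18 stayed under this minimum. The other 10 (Dkk1, Dkk4, Fzd10, Rspo4, Rspo4os, Wnt16, Wnt3a, Wnt7a, Wnt8a and Wnt9b) were not analysed here.

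The study compared mRNA of C2C12 cells, an established mouse skeletal muscle myoblast line grown in DMEM with fetal bovine serum, with mRNA of MSTN-KO cells derived from it. Each group had 3 libraries, called WT and MSTN-KO. Myostatin (Mstn) is a secreted TGF-beta family member that restrains muscle growth. The KO cells are the line C11, made with a CRISPR/Cas9 plasmid directed at exon 3 of Mstn, so the KO group stands for a single edited line. The labels enter C11 as the strain of all 6 libraries, WT included, and the genotype label sets the groups apart. Nothing states that libraries of a group came from separate cultures, so the p-values measure only the spread between these libraries, which may be technical.

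Wnt proteins are lipid-modified ligands that bind Frizzled receptors, and the co-receptors Lrp5 and Lrp6 in the canonical branch. Dishevelled relays the signal and restrains a destruction complex of Axin, Apc and Gsk3b, so that beta-catenin (Ctnnb1) accumulates and acts with TCF/LEF factors on target genes, while other branches act through cell polarity and calcium. In skeletal muscle the pathway takes part in myogenic specification in the embryo and in the growth, differentiation and repair functions of satellite cells.

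Mstn itself lay at 0.0211, 0 and 0.0399 FPKM in WT, compared with 0.0269, 0.0586 and 0.039 FPKM in MSTN-KO (two-sided exact permutation test, p = 0.3, where 0.1 is the smallest p possible). The gene was close to 0 in both groups, and an edited exon can still be transcribed, so these values do not check the labels. In units of 1000000 fragments, depth was about 18.1 to 19 in WT and 14.5 to 19.1 in MSTN-KO, read from the smallest steps of the low FPKM values. The myoblast genes Myod1 (145 ± 21 against 96.1 ± 6.69 FPKM, SD, n = 3) and Des (710.4 ± 120.1 against 363 ± 42.4 FPKM) were high in both groups. Of 6 tested myoblast markers, 4 (66.7%) were lower in MSTN-KO and 1 (16.7%), the satellite cell factor Pax7, was higher. Of all tested genes, 8.96% were lower and 8.78% higher. The Pax7 call (adjusted p = 0.0415) held in 5 of 10 other settings and without 1 of the 6 libraries, and that of Itga7 (0.044) without 2 of the 6 (adjusted p up to 0.13 and 0.178). No endothelial marker passed 0.0581 FPKM, and the leukocyte markers with values, Cd68 and Csf1r, summed to 1.15 to 1.51 FPKM in WT and 0.726 to 2.45 FPKM in MSTN-KO. One library stood apart from its group: the FPKM of 17 genes of differentiating muscle summed to 1303 and 1351 in WT replicates 1 and 2, to 412 in WT replicate 3 and to 64.8 to 111 in MSTN-KO. Of the 16 of these genes that were tested, 15 (93.8%) were lower in MSTN-KO, beside 8.96% of all tested genes. In these bulk libraries, fewer cells in a state and less RNA per cell cannot be told apart.

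Among the 31 tested Wnt pathway genes, 3 were higher in MSTN-KO (Sfrp2, Dkk2 and Tcf7l2), 7 were lower (Wnt10a, Wnt9a, Wnt11, Fzd6, Fzd7, Fzd3 and Dvl3) and 21 did not pass the test (limma on log2(FPKM + 1), Benjamini-Hochberg adjusted p under 0.05 over all 10837 genes tested). The 3 genes are 9.68% of the tested members, beside 8.78% of all tested genes called higher, so the share of rises was close to the background. The 7 genes are 22.6% of the tested members, beside 8.96% of all tested genes called lower. Fold changes were negative for 20 members and positive for 11. Their median was -0.12, against -0.0008 over all tested genes, on the log2(FPKM + 1) scale, which understates the change of genes near 1 FPKM. The median absolute fold change was 0.30 for the members and 0.23 for all genes.

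WT and MSTN-KO libraries did not overlap in any of the 10 called genes. They did not overlap either in Wnt10b, Apc and Ctnnb1, which were lower, and in Dvl2 and Axin1, which were higher, but none of these 5 passed the test. In all, 10 tested members (32.3%) were lower and 5 (16.1%) higher without overlap, beside 18.1% and 19.3% of all tested genes. Without WT replicate 3 the counts were 3 higher and 5 lower, Wnt11 and Fzd3 being lost. Of all 10790 genes tested then, 603 were higher and 797 lower. This library was the WT library nearest to the MSTN-KO values in 6 of the 10 called genes. The part of the difference in muscle differentiation in the Wnt values was not tested. Summed FPKM was 723705 to 764524 in WT and 856314 to 999579 in MSTN-KO. Scaling each library to the same summed FPKM moved the median of all genes to -0.26 and the member counts to 2 higher and 13 lower. Of all 10837 tested genes, 350 were then higher and 2367 lower, against 952 and 971 without scaling. Relative to the shifted median of all genes, 11 members were above and 20 below, the same numbers as above and below 0 without scaling. Taking off the median largely undoes the scaling, so this is not a separate check.

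**Figure D1:**
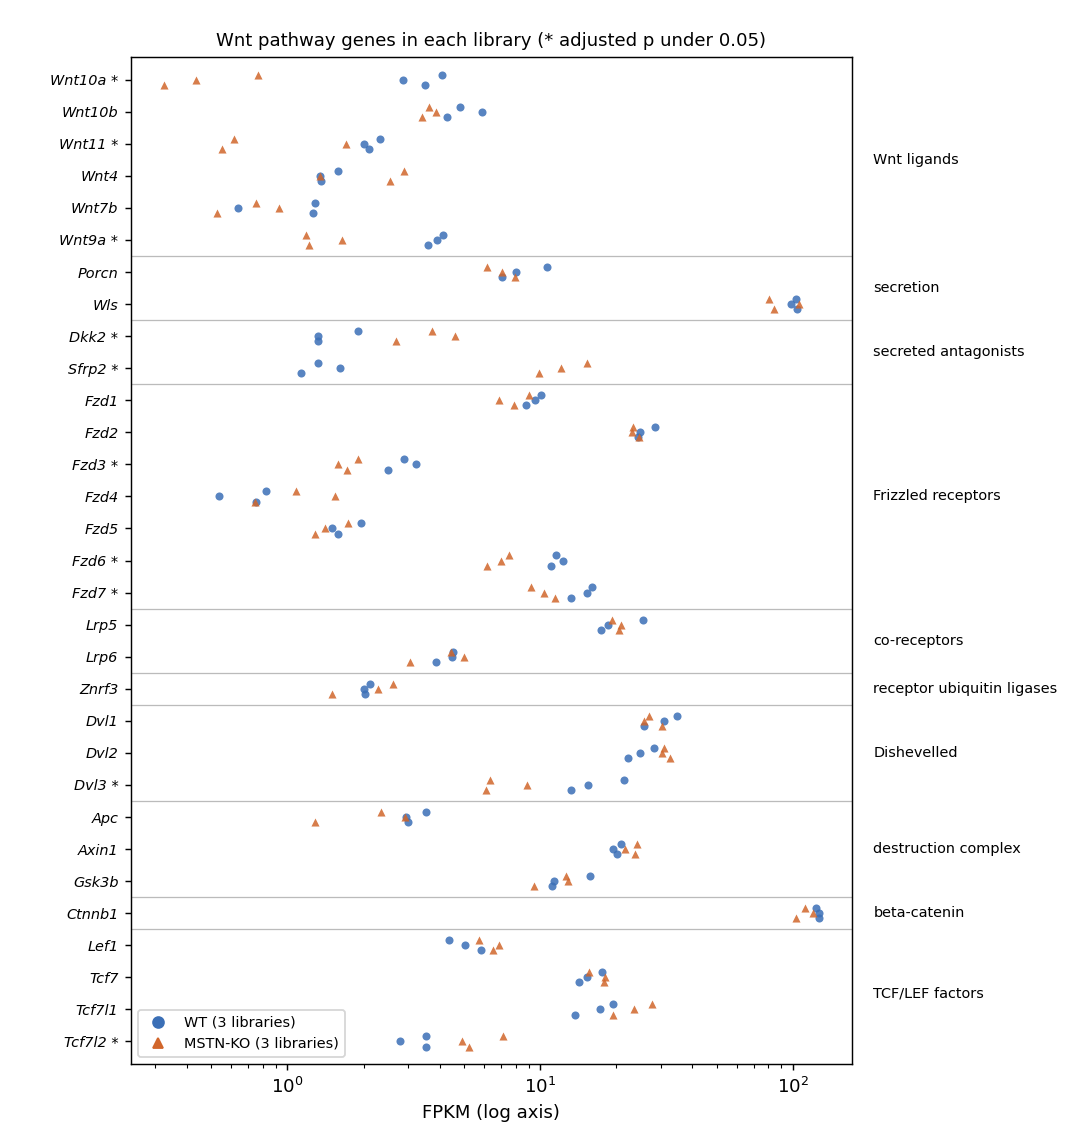
FPKM on a log axis of the 31 tested Wnt pathway genes in each library, grouped by role. Circles are the 3 WT and triangles the 3 MSTN-KO libraries, and an asterisk marks the 10 genes with an adjusted p under 0.05. The widest gaps between circles and triangles are those of Sfrp2, with MSTN-KO on the right, and of Wnt10a, with MSTN-KO on the left.

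RefSeq start sites (GRCm38.p6) were listed for 32 of the 49 members, 7 of the 10 called genes among them, and gave 42 promoters. The 250 bases before the start are printed here for Sfrp2, the gene with the largest rise, and for the 4 called-lower genes with an entry, with searched words in capitals. One search was for the 4 TCF/LEF words made of CTTTG with AA, AT, TA or TT after it, and the other for CAGCTG, an E-box of the kind bound by MyoD family factors, both on either strand. All 5 genes lie on the plus strand, and the sequences read 5′ to 3′.
Sfrp2, chr3:83766071-83766320: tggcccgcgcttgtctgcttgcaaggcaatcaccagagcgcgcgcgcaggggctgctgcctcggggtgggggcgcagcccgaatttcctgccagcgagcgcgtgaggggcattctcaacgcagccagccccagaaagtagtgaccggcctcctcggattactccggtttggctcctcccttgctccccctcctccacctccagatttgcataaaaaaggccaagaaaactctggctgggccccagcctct
Wnt9a, chr11:59306680-59306929: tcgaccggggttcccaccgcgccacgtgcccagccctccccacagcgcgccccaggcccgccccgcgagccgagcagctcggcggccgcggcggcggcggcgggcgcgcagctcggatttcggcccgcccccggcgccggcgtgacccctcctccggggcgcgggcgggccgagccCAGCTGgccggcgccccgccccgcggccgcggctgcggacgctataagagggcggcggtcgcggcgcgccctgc
Wnt11, chr7:98834862-98835111: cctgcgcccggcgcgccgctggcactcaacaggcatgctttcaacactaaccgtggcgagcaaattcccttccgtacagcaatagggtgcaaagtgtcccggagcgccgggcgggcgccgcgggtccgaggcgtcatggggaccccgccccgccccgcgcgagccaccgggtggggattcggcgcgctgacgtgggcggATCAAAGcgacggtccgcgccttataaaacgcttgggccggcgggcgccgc
Dvl3, chr16:20516736-20516985: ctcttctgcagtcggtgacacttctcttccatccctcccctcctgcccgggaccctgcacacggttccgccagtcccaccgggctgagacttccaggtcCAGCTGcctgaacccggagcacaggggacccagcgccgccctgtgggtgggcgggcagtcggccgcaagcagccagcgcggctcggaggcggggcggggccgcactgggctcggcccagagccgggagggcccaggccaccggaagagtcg
Fzd7, chr1:59481897-59482146: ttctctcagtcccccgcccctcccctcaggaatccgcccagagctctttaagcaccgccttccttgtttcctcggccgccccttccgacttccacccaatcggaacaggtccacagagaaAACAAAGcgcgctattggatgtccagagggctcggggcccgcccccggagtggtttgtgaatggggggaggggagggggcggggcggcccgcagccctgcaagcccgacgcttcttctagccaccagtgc
Of the Wnt11 starts, the upstream promoter, printed here, held ATCAAAG, the reverse complement of CTTTGAT, from 51 bases before the start, and the Fzd7 promoter AACAAAG, the reverse complement of CTTTGTT, from 130 bases before. The other Wnt11 promoter (chr7:98838595-98838844) held no searched word. The Wnt9a and Dvl3 promoters held CAGCTG from 74 and 151 bases before the start. The Sfrp2 window held none of these words. Among the other called genes, Dkk2 held none and the downstream of the Tcf7l2 starts had CTTTGTT from 14 bases before. No member promoter held words of both kinds, so none overlapped. TCF/LEF words were in 5 of 42 member promoters (11.9%) and in 14.8% of all 32851 promoters. The E-box was in 4 of 42 (9.52%) and in 13% of all. Both shares were near those of all promoters, and a word in such a window is not a bound site.

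Among the ligands, Wnt10a, a canonical ligand known from tooth and skin appendage development, had the largest fall of all members. It was at 4.09, 2.86 and 3.51 FPKM in WT and at 0.768, 0.433 and 0.324 FPKM in MSTN-KO. The lowest WT library was well above the highest MSTN-KO library. The means were 3.49 ± 0.619 and 0.508 ± 0.231 FPKM (SD, n = 3 each), 6.86-fold higher in WT, and the log2 fold change was -1.57 (SE 0.18, limma adjusted p = 7.39e-05). These FPKM correspond to about 134 to 183 fragments in a WT library and 15 to 27 in a MSTN-KO library. Wnt10a lies on chromosome 1 (GRCm38, 74791516 to 74804179), 6.2 kb after Wnt6. Wnt6 stayed under the minimum, at 0.363, 0.345 and 0.289 FPKM in WT and 0.0997, 0.138 and 0.0304 FPKM in MSTN-KO, so both neighbours were lower without overlap. Tested genes of chromosome 1 had a median log2 fold change of -0.25, beside -1.57 for Wnt10a.

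Wnt9a, which takes part in joint and blood stem cell development, was also lower. It was at 4.14, 3.9 and 3.59 FPKM in WT and at 1.18, 1.64 and 1.22 FPKM in MSTN-KO, with no overlap and little spread within either group. The means were 3.88 ± 0.273 and 1.35 ± 0.252 FPKM, 2.88-fold higher in WT, and the log2 fold change was -1.06 (SE 0.16, limma adjusted p = 0.000683). Leaving out any 1 library kept the fold change of Wnt9a between -1.15 and -1.01 and that of Wnt10a between -1.69 and -1.48, all past the threshold. The Wnt9a gene lies on chromosome 11 (59306928 to 59333552), where the median of tested genes was 0.026.

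Wnt11, a ligand known mainly for non-canonical signalling and cell movement, was at 2.33, 2 and 2.1 FPKM in WT and at 0.613, 1.7 and 0.551 FPKM in MSTN-KO. MSTN-KO replicate 2 lay close to the WT libraries, while replicates 1 and 3 lay well below every WT library. The log2 fold change was -0.73 (SE 0.21, limma adjusted p = 0.0312). The call held only when MSTN-KO replicate 2 was the library left out (log2 fold change -0.99). It was lost without each of the other 5 libraries in turn, with fold changes of -0.76 to -0.59 and adjusted p of 0.0632 to 0.12. It was also lost without the minimum on FPKM (adjusted p = 0.0703) and after quantile normalization (0.0701). Wnt11 shares 364 of its 4137 exon bases with an antisense gene, Gm8398.

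The ligand with the most transcript, Wnt10b, which favours bone over fat formation, did not pass the test. It was at 4.84, 5.87 and 4.29 FPKM in WT and at 3.64, 3.87 and 3.4 FPKM in MSTN-KO, groups that did not overlap (log2 fold change -0.36, SE 0.16, adjusted p = 0.125). Wnt4, a ligand of kidney, gonad and neuromuscular development, was at 1.59, 1.35 and 1.36 FPKM in WT and at 2.9, 1.35 and 2.55 FPKM in MSTN-KO. MSTN-KO replicate 2 had the same Wnt4 value as WT replicate 2, and the log2 fold change of 0.39 did not pass (adjusted p = 0.19), although without that library it did (0.61, adjusted p = 0.0285). Replicate 2 was thus the MSTN-KO library nearest to WT for both Wnt11 and Wnt4. Wnt7b (1.06 ± 0.368 against 0.732 ± 0.199 FPKM, adjusted p = 0.404) overlapped between groups. Wnt5b stayed under the minimum at 0.447 to 0.644 FPKM in WT and 0.491 to 0.769 FPKM in MSTN-KO, and Wnt1, Wnt2, Wnt2b, Wnt3, Wnt5a and Wnt8b did not exceed 0.121 FPKM in any library.

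Summed over the 14 ligands with values, the FPKM came to 19.3, 17.7 and 17 in WT and to 10.8, 10.6 and 9.23 in MSTN-KO. The groups did not overlap, and the mean sums were 18 ± 1.19 and 10.2 ± 0.856 FPKM, 1.76-fold higher in WT. Of this sum, Wnt10b made up 27.8% ± 4.65 in WT and 35.7% ± 1.72 in MSTN-KO (SD, n = 3). The share of Wnt10a was 19.3% ± 2.76 and 4.9% ± 1.93, and that of Wnt9a 21.5% ± 0.468 and 13.2% ± 2.25. Wnt4 took 7.98% ± 0.299 in WT and 22.4% ± 8.36 in MSTN-KO, where its share was 12.8% in replicate 2 and 26.8% and 27.7% in the others. Wnt10b was the largest share in every library. In MSTN-KO replicate 2, Wnt11 (16.1%) and Wnt9a (15.4%) were above Wnt4, whose own level did not pass the test.

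**Figure D2:**
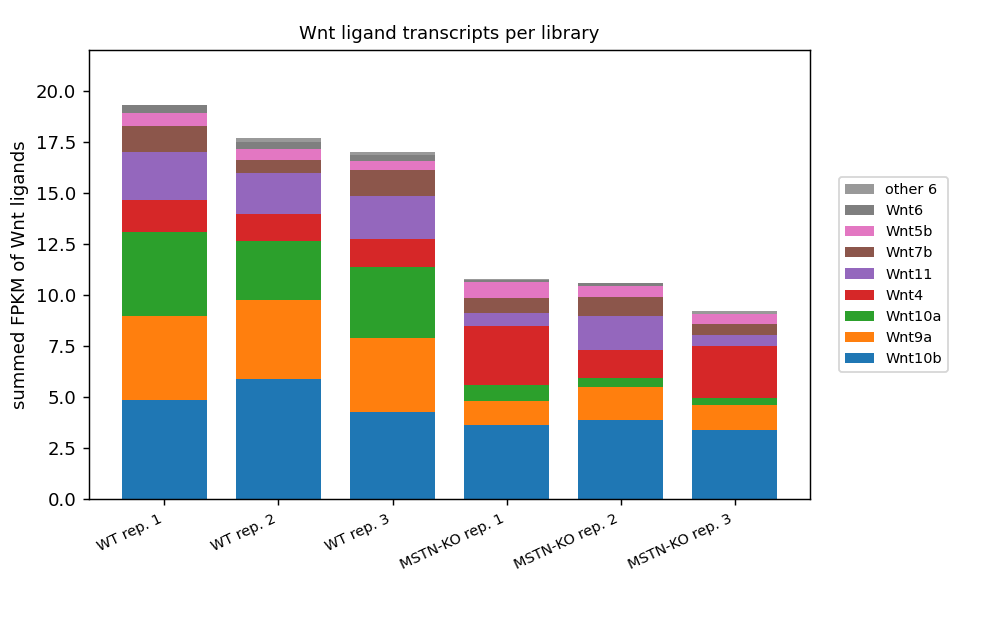
Stacked bars of the FPKM of the Wnt ligands in each of the 6 libraries, with the 6 ligands that never exceeded 0.121 FPKM joined as other. Every WT bar (17 to 19.3 FPKM) is taller than every MSTN-KO bar (9.23 to 10.8 FPKM), and the Wnt10a segment is thin in all 3 MSTN-KO libraries.

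The genes for Wnt secretion did not pass the test. Wls, the carrier that brings lipid-modified Wnt to the cell surface, was at 103, 98.8 and 104 FPKM in WT and at 80.5, 106 and 84 FPKM in MSTN-KO (log2 fold change -0.18, adjusted p = 0.355). Porcn, the acyltransferase that adds the lipid, was at 10.6, 8.02 and 7.07 FPKM in WT and at 6.17, 7.06 and 7.92 FPKM in MSTN-KO (log2 fold change -0.24, adjusted p = 0.345). Both overlapped between groups. Wls transcript per length was 12.2 ± 2.51 times that of Porcn in WT and 12.9 ± 2.23 times in MSTN-KO.

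Both tested secreted antagonists were higher in MSTN-KO, beside 8.78% of all tested genes. Sfrp2, a soluble Frizzled-like protein that binds Wnt and is made by many mesenchymal cells, was at 1.32, 1.61 and 1.13 FPKM in WT and at 15.3, 12.1 and 9.88 FPKM in MSTN-KO. Every MSTN-KO library was several times above every WT library. The means were 1.35 ± 0.242 and 12.4 ± 2.7 FPKM, 9.17-fold higher in MSTN-KO, and the log2 fold change was 2.50 (SE 0.18, limma adjusted p = 9.75e-07). Leaving out any 1 library gave 2.35 to 2.64. The 5 fibroblast markers with values summed to 354 to 491 FPKM in WT and 553 to 618 FPKM in MSTN-KO. Of the 4 tested, Col3a1 was higher (25%, beside 8.78% of all tested genes) and Dcn lower (25%, beside 8.96%). The Col3a1 call was lost after quantile normalization (adjusted p = 0.0608) and scaling to the same summed FPKM (0.102). The Dcn call (0.0454) held in 4 of 10 other settings and without 3 of the 6 libraries. The adipocyte marker Fabp4 was at 0.147 to 0.324 FPKM in WT and 0.919 to 1.76 FPKM in MSTN-KO, while Plin1 did not exceed 0.0639 FPKM. The part of such cell states in the Sfrp2 values was not tested. Sfrp2 lies on chromosome 3 (83766321 to 83774316). It shares 347 of its 2153 exon bases with an antisense gene, Gm26771, and whether the counting used strand is not given in the sources used here.

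Dkk2, a ligand of Lrp5 and Lrp6 that can block or, by itself, weakly activate the canonical branch, was at 1.9, 1.32 and 1.32 FPKM in WT and at 3.72, 4.62 and 2.7 FPKM in MSTN-KO. The groups did not overlap. The means were 1.51 ± 0.332 and 3.68 ± 0.96 FPKM, 2.43-fold higher in MSTN-KO, and the log2 fold change was 0.88 (SE 0.19, limma adjusted p = 0.0065). It ranged from 0.74 to 1.04 with 1 library left out. Dkk2 is on chromosome 3 as well (132085292 to 132180304), 48.31 Mb from Sfrp2, and the median of tested genes there was 0.014. Sfrp1, at 0.613, 0.76 and 0.624 FPKM in WT and 0.287, 0.728 and 0.545 FPKM in MSTN-KO, stayed under the minimum and overlapped. Dkk3 and Sfrp5 did not exceed 0.189 FPKM. The 5 antagonists together summed to 3.66 ± 0.427 FPKM in WT and 16.7 ± 3.11 FPKM in MSTN-KO, 4.55-fold higher. Sfrp2 carried most of the sum in MSTN-KO (12.4 FPKM) but not in WT (1.35 FPKM). The other 4 summed to 2.31 ± 0.289 FPKM in WT and 4.26 ± 1 FPKM in MSTN-KO. The further antagonist list, mostly Kremen1, summed to 41.7 to 64.3 FPKM in WT and 39.9 to 43.4 FPKM in MSTN-KO. In this list Igfbp4 (0.52 ± 0.0498 against 0.338 ± 0.0616 FPKM) and Frzb (0.0868 ± 0.0305 against 0.0237 ± 0.0205 FPKM), both under the minimum, were lower without overlap. So was Kremen1, while the other genes of the list with values overlapped. Of all genes under the minimum, 14.2% were lower without overlap. The R-spondins Rspo1, Rspo2 and Rspo3, which strengthen Wnt signals, did not exceed 0.0716 FPKM.

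**Figure D3:**
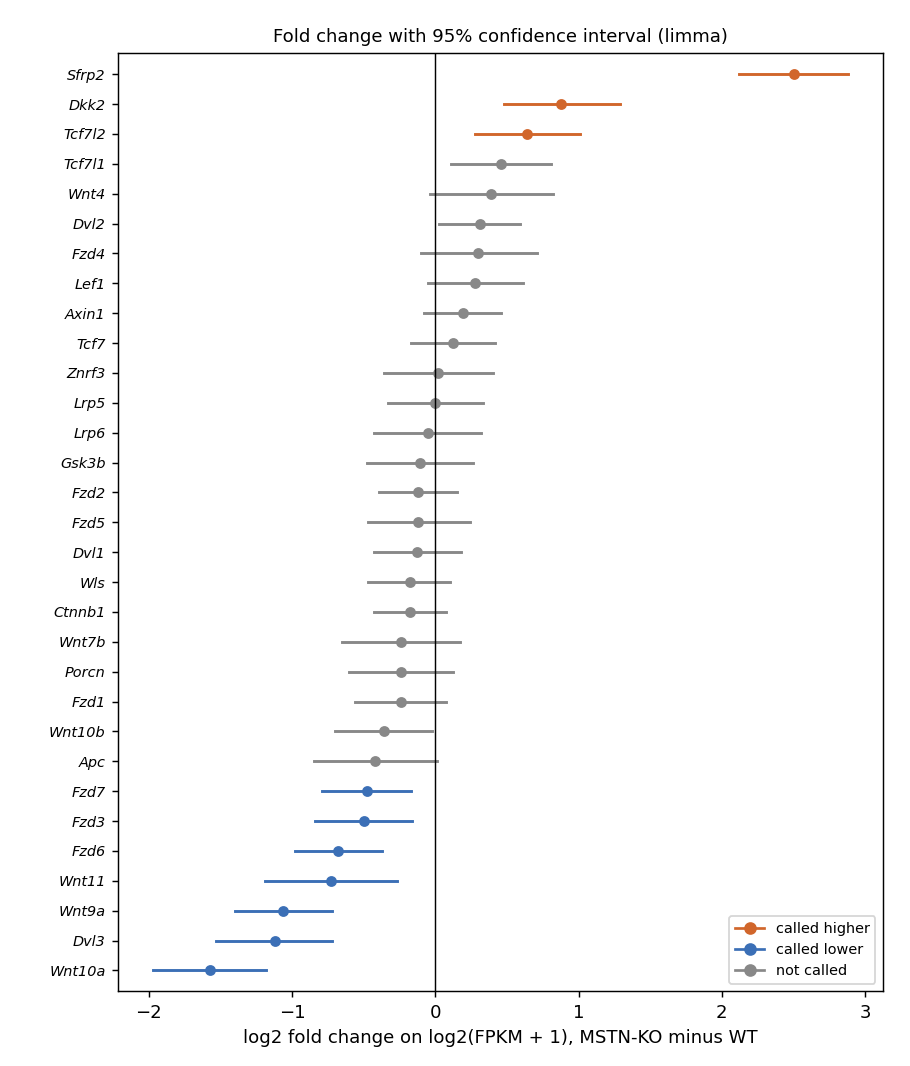
Log2 fold change on log2(FPKM + 1), MSTN-KO minus WT, of the 31 tested genes with the 95% confidence interval from limma. Sfrp2 stands alone at the top (2.50), while Wnt10a, Dvl3 and Wnt9a at the bottom are the members below -1.

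Of the 7 tested Frizzled receptors, 3 were lower and none higher, and 6 of the 7 fold changes were negative (5 after quantile normalization, where Fzd5 turned to 0.040). Over all tested genes 8.96% were lower and 8.78% higher, and the calls of Fzd7 and Fzd3 were lost when single libraries were left out. Fzd6, a receptor of planar polarity and hair patterning, was at 11.6, 12.3 and 11 FPKM in WT and at 7.55, 6.99 and 6.18 FPKM in MSTN-KO. The groups were far apart relative to their spread, at 11.6 ± 0.669 and 6.91 ± 0.69 FPKM (log2 fold change -0.68, SE 0.14, limma adjusted p = 0.00542). Its call held without any 1 library (-0.74 to -0.61). The 152 exon bases it shares with the antisense gene Gm26704 are a small part of its 4818.

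Fzd7, known in muscle as a receptor for Wnt7a on satellite cells, was at 16, 15.4 and 13.2 FPKM in WT and at 9.23, 10.4 and 11.5 FPKM in MSTN-KO. The groups did not overlap (log2 fold change -0.48, SE 0.14, adjusted p = 0.0335). The call was lost without WT replicate 1 (-0.43, adjusted p = 0.0858), WT replicate 2 (-0.46, 0.138) or MSTN-KO replicate 1 (-0.41, 0.147), and without the minimum on FPKM (0.0591). Fzd7 is on chromosome 1 (59482424 to 59486955), where the median of tested genes was -0.25. Fzd3, a receptor of axon guidance and polarity, was at 2.89, 3.23 and 2.51 FPKM in WT and at 1.9, 1.59 and 1.72 FPKM in MSTN-KO, again without overlap (log2 fold change -0.50, SE 0.16, adjusted p = 0.0447). It lost its call without any 1 of the 6 libraries (-0.57 to -0.44, adjusted p 0.0559 to 0.198). It also lost it after quantile normalization (-0.35, 0.15) and after a correction for exon length and GC content (-0.29, 0.286). The median of tested genes on its chromosome, 14, was -0.29.

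The most abundant Frizzled, Fzd2, was at 28.5, 24.8 and 24.3 FPKM in WT and at 23.4, 23 and 24.6 FPKM in MSTN-KO, with overlap (log2 fold change -0.12, 95% interval -0.39 to 0.15, adjusted p = 0.536). Fzd1 (-0.24, adjusted p = 0.272), Fzd4 (0.30, 0.277) and Fzd5 (-0.12, 0.666) did not pass either. Fzd8 and Fzd9 stayed under the minimum, and they are named, like Wnt6 and Rnf43, because their groups did not overlap, a choice made after their values were seen. Fzd9 was at 0.571, 0.62 and 0.543 FPKM in WT and 0.367, 0.281 and 0.37 FPKM in MSTN-KO. Fzd8 was at 0.294, 0.179 and 0.289 FPKM in WT and 0.344, 0.364 and 0.413 FPKM in MSTN-KO. Together the 9 Frizzled genes with values summed to 67.9 ± 4.87 FPKM in WT and 53.9 ± 1.25 FPKM in MSTN-KO, without overlap.

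Among the 18 members under the minimum, 4 were lower without overlap (Wnt6, Fzd9, Axin2 and Rnf43; 22.2%), 1 was higher without overlap (Fzd8; 5.56%) and 13 overlapped. Of all 3711 genes under the minimum, 14.2% were lower and 6.52% higher without overlap. In a fit of all 14548 genes with no minimum, Wnt6 (log2 fold change -0.29, limma adjusted p = 0.0146) and Fzd9 (-0.24, 0.0378) passed the test. Axin2 (-0.27, 0.13), Fzd8 (0.13, 0.166) and Rnf43 (-0.041, 0.41) did not. That fit called 906 of the 14548 genes lower and 720 higher. Wnt6 rested on about 12 to 14 fragments in a WT library and 1 to 5 in a MSTN-KO library. Fzd9 rested on about 24 to 27 and 11 to 16.

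The co-receptors showed no detectable difference. Lrp5 was at 25.6, 18.6 and 17.4 FPKM in WT and at 19.2, 20.9 and 20.5 FPKM in MSTN-KO, where the MSTN-KO libraries lay inside the WT range (log2 fold change -0.0038, 95% interval -0.33 to 0.33, adjusted p = 0.99). Lrp6 was at 4.54, 4.46 and 3.86 FPKM in WT and at 4.43, 4.99 and 3.05 FPKM in MSTN-KO (-0.052, 95% interval -0.43 to 0.32, adjusted p = 0.86). Znrf3, a ubiquitin ligase that removes Frizzled from the membrane, was at 2.13, 2 and 2.03 FPKM in WT and at 2.62, 2.29 and 1.5 FPKM in MSTN-KO (0.022, adjusted p = 0.946). Its relative Rnf43 was at 0.0388, 0.0363 and 0.0125 FPKM in WT and was listed at 0 in the 3 MSTN-KO libraries. The WT values correspond to only about 5, 5 and 2 fragments, so Rnf43 was near 0 in both groups.

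Of the Dishevelled genes, which relay the signal from the receptor, Dvl3 was lower. It was at 21.4, 15.5 and 13.3 FPKM in WT and at 6.31, 8.84 and 6.11 FPKM in MSTN-KO. The groups did not overlap, although the WT libraries spread widely. The means were 16.7 ± 4.19 and 7.09 ± 1.52 FPKM, 2.36-fold higher in WT (log2 fold change -1.12, SE 0.19, limma adjusted p = 0.00144), and the fold change was -1.27 to -0.94 with 1 library left out. Dvl3 lies on chromosome 16 (20516982 to 20534010), where the median of tested genes was -0.077.

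Dvl2 was at 28.3, 24.9 and 22.2 FPKM in WT and at 30.8, 30.3 and 32.6 FPKM in MSTN-KO, higher without overlap but not past the test (log2 fold change 0.31, SE 0.13, adjusted p = 0.119). After the correction for length and GC content it passed (0.26, adjusted p = 0.0446). It shares 1151 of 6298 exon bases with Acadvl on the opposite strand, a gene at 78.7 FPKM in WT and 95.2 FPKM in MSTN-KO. Dvl1 was at 34.9, 30.8 and 25.8 FPKM in WT and at 27, 25.8 and 30.5 FPKM in MSTN-KO (-0.13, adjusted p = 0.571). Dvl2 per length was 1.53 ± 0.186 times Dvl3 in WT and 4.55 ± 1 times in MSTN-KO. The 3 genes together overlapped between groups, at 72.3 ± 11.7 and 66.1 ± 2.72 FPKM.

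No tested member of the destruction complex passed the test. Axin1, its limiting scaffold, was at 20.9, 19.5 and 20.2 FPKM in WT and at 24.1, 21.7 and 23.8 FPKM in MSTN-KO (log2 fold change 0.19, adjusted p = 0.311), and turned to -0.085 when libraries were scaled to the same summed FPKM. Apc, the tumour suppressor scaffold, was at 3.53, 2.94 and 3.01 FPKM in WT and at 2.34, 2.93 and 1.29 FPKM in MSTN-KO (-0.42, adjusted p = 0.164). The kinase gene Gsk3b was at 15.7, 11.4 and 11.1 FPKM in WT and at 12.7, 12.9 and 9.43 FPKM in MSTN-KO (-0.11, adjusted p = 0.691). Axin2, which is both a scaffold and a widely used target gene of beta-catenin, was at 0.566, 0.305 and 0.218 FPKM in WT and at 0.111, 0.217 and 0.059 FPKM in MSTN-KO. The closest values were 0.218 and 0.217 FPKM. At about 23 to 56 fragments in WT and 6 to 20 in MSTN-KO, Axin2 was low in both groups.

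Ctnnb1, the beta-catenin gene and the most abundant member, was at 124, 127 and 127 FPKM in WT and at 112, 119.9 and 103 FPKM in MSTN-KO. The groups did not overlap, but the difference was small and did not pass the test (log2 fold change -0.18, 95% interval -0.43 to 0.077, adjusted p = 0.318). Beta-catenin is regulated mainly as a protein, which was not measured in these libraries.

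All 4 TCF/LEF genes, the DNA-binding partners of beta-catenin, had positive fold changes, though Tcf7 turned to -0.15 when libraries were scaled to the same summed FPKM, and Tcf7l2 passed the test. Tcf7l2 was at 3.54, 2.79 and 3.55 FPKM in WT and at 7.15, 4.9 and 5.22 FPKM in MSTN-KO, without overlap. The means were 3.29 ± 0.432 and 5.76 ± 1.22 FPKM, 1.75-fold higher in MSTN-KO (log2 fold change 0.64, SE 0.17, limma adjusted p = 0.0198). The call was lost without WT replicate 2 (0.56, adjusted p = 0.103), without MSTN-KO replicate 1 (0.50, 0.1), without the minimum on FPKM (0.0583) and after scaling to the same summed FPKM (0.43, 0.114). Tcf7l2 lies on chromosome 19 (55741820 to 55933654).

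Tcf7l1, which acts mostly as a repressor, was at 19.5, 17.2 and 13.7 FPKM in WT and at 27.6, 23.6 and 19.4 FPKM in MSTN-KO. The groups touched at 19.5 and 19.4 FPKM (log2 fold change 0.46, SE 0.16, adjusted p = 0.0706), and without MSTN-KO replicate 3 the gene passed (0.59, adjusted p = 0.048). Lef1 (5.08 ± 0.72 against 6.36 ± 0.588 FPKM, 0.28, adjusted p = 0.225) and Tcf7 (15.7 ± 1.68 against 17.2 ± 1.35 FPKM, 0.12, adjusted p = 0.564) did not pass. The sum of the 4 genes was 40.9 ± 3.86 FPKM in WT and 52.8 ± 3.57 FPKM in MSTN-KO, without overlap.

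Further pathway genes were taken as fixed lists. Of 13 further antagonists, most of them secreted, 3 were tested, all membrane-anchored proteins (Kremen1, Trabd2b and Apcdd1), and none was called. The most abundant was Kremen1, a Dkk receptor, at 45.6 ± 10.4 and 34.4 ± 1.47 FPKM (adjusted p = 0.119). Among other receptors and co-factors, 1 of 12 tested genes was higher (8.33%, against 8.78% of all tested genes) and 2 were lower (16.7%, against 8.96%). Ryk, a Wnt-binding receptor of the tyrosine kinase fold, went from 40.5 ± 2.88 to 59.7 ± 5.76 FPKM (0.55, adjusted p = 0.0104), a call lost without MSTN-KO replicate 1 (0.0624) and under scaling to the same summed FPKM (0.27, 0.11). Tspan12, a Frizzled partner in norrin signalling, went from 10.3 ± 1.34 to 4.53 ± 1.12 FPKM (-1.04, adjusted p = 0.00134), and Adgra2, which works with Reck in Wnt7 signalling, from 11.2 ± 2.14 to 6.63 ± 2.53 FPKM (-0.71, adjusted p = 0.0376). The call of Adgra2 was lost without 4 of the 6 libraries in turn (WT replicates 1 and 2, MSTN-KO replicates 1 and 3). It was also lost without the minimum on FPKM (0.119) and after quantile normalization (0.0757).

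Among 17 tested cytoplasmic regulators, only Dact3, a Dishevelled antagonist, was called (4.21 ± 0.39 to 6.79 ± 0.82 FPKM, 0.58, adjusted p = 0.0189). Its call was lost without WT replicate 2 (0.083), WT replicate 3 (0.0624) or MSTN-KO replicate 3 (0.0513), and under scaling to the same summed FPKM (0.109). Among 15 nuclear co-factors, 2 were higher and none lower. Tle2, a Groucho co-repressor of TCF/LEF factors, was at 5.6, 4.23 and 4.87 FPKM in WT and at 11.3, 13.4 and 11.5 FPKM in MSTN-KO (1.15, SE 0.15, limma adjusted p = 0.000207). Bcl9l, a beta-catenin co-activator, went from 13.7 ± 2.81 to 20.9 ± 2.27 FPKM (0.59, adjusted p = 0.0214). This call was lost without WT replicate 2 (0.0991), WT replicate 3 (0.073), MSTN-KO replicate 1 (0.0886) or MSTN-KO replicate 3 (0.056). It was also lost without the minimum on FPKM (0.0566) and under the same scaling (0.164). Among 15 planar cell polarity genes, Fuz, a ciliogenesis gene, was higher (4.61 ± 1.13 to 8.69 ± 1.71 FPKM, 0.79, adjusted p = 0.0101), except under scaling to the same summed FPKM (0.56, 0.0548). Mapk8, which encodes the kinase JNK1, was lower (8.32 ± 0.799 to 4.62 ± 2.2 FPKM, -0.82, adjusted p = 0.044), a call kept in 4 of 10 other settings. It was lost without WT replicate 1 (0.119), WT replicate 2 (0.0678), WT replicate 3 (0.106) or MSTN-KO replicate 3 (-0.43, 0.0751). Shares called in these 3 lists were 5.88%, 13.3% and 6.67% higher, beside 8.78% of all tested genes. The shares called lower were 0%, 0% and 6.67%, beside 8.96% of all tested genes.

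Of 17 tested genes often cited as beta-catenin targets, 1 was higher (5.88%, against 8.78% of all tested genes) and 4 were lower (23.5%, against 8.96%), and 11 fold changes were positive and 6 negative (median 0.14). Ccn5, also known as Wisp2, was at 1.88, 1.59 and 0.966 FPKM in WT and at 15.4, 15.5 and 15.8 FPKM in MSTN-KO (2.76, SE 0.17, limma adjusted p = 2.39e-07). Cd44, a hyaluronan receptor, went from 209.8 ± 32.3 to 111 ± 25.4 FPKM (-0.92, adjusted p = 0.00232) and Sox9, a chondrocyte factor, from 29.5 ± 4.24 to 18 ± 1.01 FPKM (-0.67, adjusted p = 0.00501). Ephb3 (-0.65) and Id2 (-0.63), named because they complete the count, were the other 2. By qRT-PCR of FOS, RB1, TGFB1 and ID2, the paper reports a significant fall in MSTN-KO for FOS and TGFB1 alone, so not for ID2. The Ephb3 call was lost without WT replicate 1 (adjusted p = 0.0577) or WT replicate 2 (0.0511). The cell cycle gene Ccnd1 (95.2 ± 5.26 to 108 ± 14.3 FPKM, adjusted p = 0.36) and Myc (31.9 ± 1.78 to 35.6 ± 4.71 FPKM, adjusted p = 0.479) did not pass. Lgr5, Notum, Rnf43 and Axin2, targets closely tied to the pathway, were under the minimum. Lef1 (0.28, adjusted p = 0.225), Tcf7 (0.12, 0.564), Znrf3 (0.022, 0.946) and Apcdd1 (0.19, 0.424) were tested and did not pass either. Of this list, Lef1, Tcf7, Znrf3, Rnf43 and Axin2 are also Wnt members, so the list is not separate from them.

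**Figure D4:**
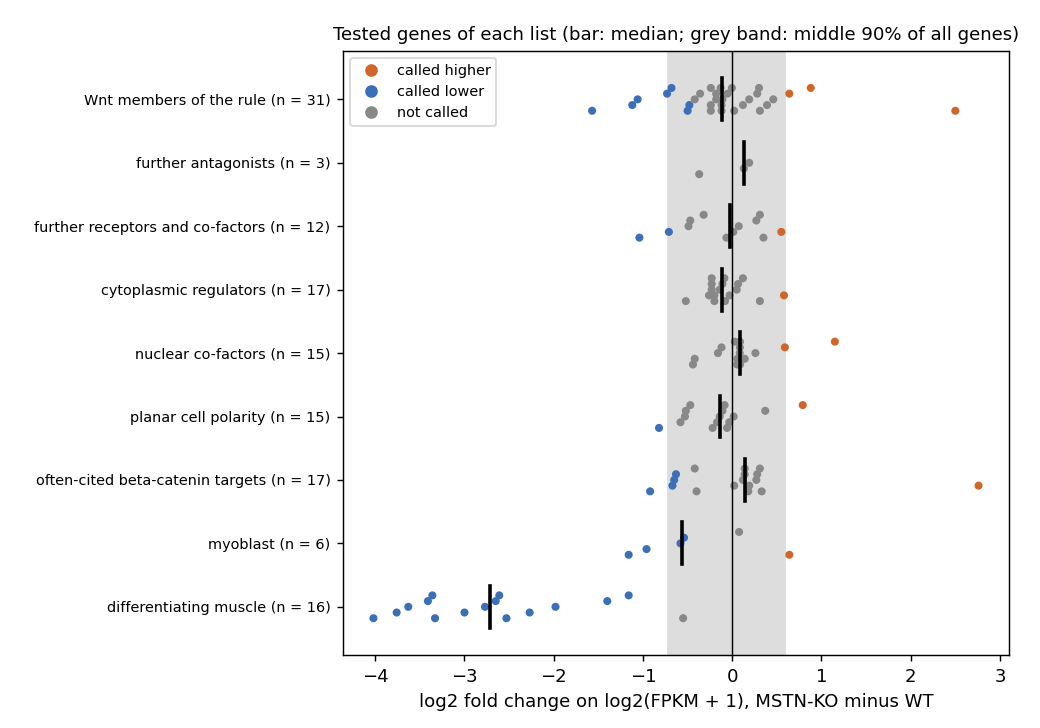
Log2 fold change on log2(FPKM + 1), MSTN-KO minus WT, of every tested gene of the Wnt members, 6 further pathway lists and 2 muscle marker lists. Coloured points passed the test, black bars are medians, and the grey band from -0.72 to 0.59 holds the middle 90% of all tested genes. The medians of the Wnt lists lie near 0, while that of the differentiating muscle genes is -2.71.

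Under 16 other settings, 10 of them changes of the processing and 6 of them leaving out a library, 6 of the 10 called members kept their call throughout: Sfrp2, Dkk2, Wnt10a, Wnt9a, Fzd6 and Dvl3. Wnt11, Fzd7, Fzd3 and Tcf7l2 lost it at least once, and none of the 10 changed direction. The cutoffs stated in the paper, given further below, are not among the 16.

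**Figure D5:**
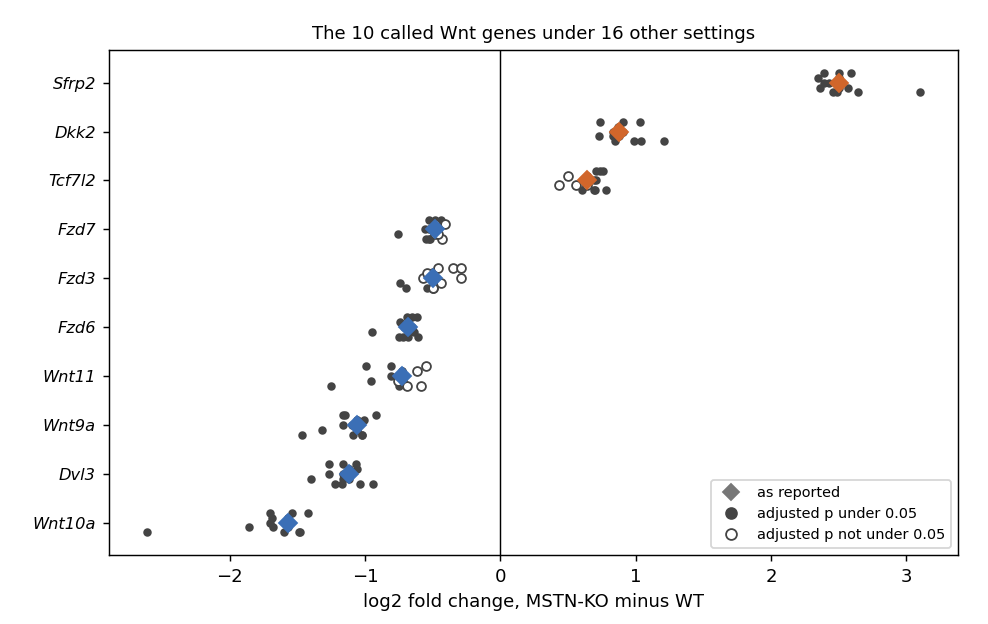
Log2 fold change, MSTN-KO minus WT, of the 10 called genes as reported (diamonds) and under 16 other settings (circles, open where the adjusted p was not under 0.05). The points farthest from 0 for Wnt10a and Sfrp2 come from a pseudocount of 0.1. Open circles occur for Tcf7l2, Fzd7, Fzd3 and Wnt11 and for no other gene.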

How the data were processed

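The deposited values were FPKM per gene, computed by the authors for 3 WT and 3 MSTN-KO libraries sequenced on the Illumina HiSeq platform. The submitters' processing notes name Bowtie 0.12.2 and mm8 without a role, and the counter, annotation, strand setting and filter are not given in the sources used here. No counts were used, so depth was read approximately from the steps of FPKM below 0.1 of genes with a single transcript.

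Ensembl IDs were matched to GENCODE M21 (GRCm38), which named 14454 of 14548 genes. Genes with at least 1 FPKM in 1 library (10837) entered a limma fit (version 3.58.1, under R 4.3.3) on log2(FPKM + 1), with a trended variance prior, two-sided, without a replicate block, and called at a Benjamini-Hochberg adjusted p under 0.05 over all of them. The fit was tested on simulated data. Members, lists and settings were chosen with earlier results of these data known. Named were the called members, the 2 most abundant of each role, Ctnnb1, Axin2, Lef1 and Tcf7, members above the minimum whose groups did not overlap, and members whose call or direction changed. In each further list these were the 2 largest rises and falls among called genes. Kremen1, Trabd2b, Apcdd1, Igfbp4, Frzb, Ccnd1, Myc, Lgr5, Notum, Ephb3 and Id2 were named outside this rule, after their values were seen. Alternatives were the pseudocount, the minimum, the variance trend, 3 scalings, a length and GC correction, a replicate block and leaving out each library. Replicate numbers are shared by the groups, but deviations of same-numbered libraries did not correlate (r of -0.0153, -0.128 and -0.142), so no pairing was used. Promoters were RefSeq GRCm38.p6. Figures and sums used Python 3.11.15, pandas 2.3.3 and matplotlib 3.10.9.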

Additional observations from a re-analysis of the deposited data

How the results depend on the processing

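Scaling to a summed FPKM of 1000000 called 350 genes higher and 2367 lower, against 952 and 971 as reported, and 13 members lower in place of 7, with Ctnnb1, Dvl1, Fzd1, Fzd2, Wls and Wnt10b added. Under it the MSTN-KO to WT ratios of summed FPKM were 0.468 for ligands (0.567 as reported), 0.727 for secretion (0.881), 0.651 for Frizzled receptors (0.793), 0.749 for Dishevelled (0.913), 0.841 for the destruction complex (1.02), 0.730 for beta-catenin (0.886) and 1.06 for TCF/LEF factors (1.29). Ratios of the secreted antagonists, co-receptors, R-spondins and ubiquitin ligases are not given here. The antagonist genes Sfrp2 (log2 fold change 2.36) and Dkk2 (0.73) kept their calls under this scaling. The paper states cutoffs of p under 0.05 and a log fold change beyond 1 in either direction. With the unadjusted limma p and log2 fold changes, these called 131 genes higher and 249 lower. These are not the counts of the paper, which are larger in both directions and hold more genes up than down. The paper used iDEP and does not state a pseudocount or filter, while the log2(FPKM + 1) scale understates the change of genes near 1 FPKM. Among the members the cutoffs with the limma values called 1 higher (Sfrp2) and 3 lower (Wnt10a, Wnt9a and Dvl3). Dkk2 (0.88) and Fzd6 (-0.68) fell short of the fold change. With 1 library left out, 423 to 1184 genes were higher and 606 to 1251 lower, and 2 to 4 members were higher and 4 to 6 lower. The lowest counts over all genes, 423 and 606, came without WT replicate 2, and 4 members were lower without WT replicate 1, WT replicate 2 or MSTN-KO replicate 1.

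Members that did not pass the test changed sign as follows. Under the scaled sum Axin1 was -0.085, Tcf7 -0.15 and Znrf3 -0.18, and under scaling to percentile 75 Znrf3 was -0.010. After quantile normalization Fzd5 was 0.040 and Lrp6 0.073, and after the length and GC correction Lrp6 was 0.045. With 1 library left out, Gsk3b ranged from -0.19 to 0.040, Lrp5 from -0.11 to 0.16, Lrp6 from -0.17 to 0.11 and Znrf3 from -0.089 to 0.18. The cause was not tested.

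The same-numbered libraries were not paired by their deviations, and a replicate block gave 939 genes higher and 1001 lower, and 4 members higher and 5 lower. With it Fzd7 (adjusted p = 0.053) and Fzd3 (0.0785) were no longer called and Tcf7l1 (0.044) was. The replicate block with the length and GC correction gave 3 members higher and 6 lower, with Fzd3 at 0.359 and Lrp6 at 0.045. Across all tested genes the fold change correlated with the joined exon length of the gene (rho = -0.225). It also correlated with the GC content of the longest transcript (rho = 0.298). Both describe genes and not replicates. Low members rest on few fragments, such as about 15 to 27 for Wnt10a in MSTN-KO.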
